A study of Mus musculus with 6 samples.

Results

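Interferon response and MHC class I genes were followed in cerebral microvessels of WT and TEKCRIF1 KO mice. The 35 genes were chosen by symbol, out of 23183 gene symbols that carry a value in every library. They comprise 23 interferon-stimulated genes, 5 sensors and receptors and 7 antigen presentation genes. All 35 were present in the files, and 32 passed a filter of a mean of at least 1 FPKM (fragments mapped to a gene, scaled by exon length and by the size of the library) over the 6 libraries.

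KO mice were TEK-cre, *Crif1* flox/flox and WT mice were TEK-cre, *Crif1* +/+, so both groups carried the Cre transgene, both were labelled C57BL/6, and neither was treated. Sex and age of the sequenced mice are not given in the sources used here. Tek, whose promoter drives the Cre, is an endothelial receptor that is also expressed in some blood cell precursors. *Crif1* (*Gadd45gip1*) encodes a protein of the mitochondrial ribosome, and the sequenced RNA came from whole microvessels rather than from sorted endothelial cells. There were 3 libraries in each group, named here WT 1 to WT 3 and KO 1 to KO 3.

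In the interferon pathway, RNA sensors of the RIG-I family and the adaptor STING switch on genes for type I interferons, which bind a receptor made of IFNAR1 and IFNAR2. The receptor activates a complex that holds STAT2 and IRF9 and binds interferon-stimulated response elements (ISREs) in front of antiviral genes such as the Ifit, Ifitm and Oas families. Interferons also raise MHC class I, which presents peptides pumped into the endoplasmic reticulum by TAP1 and TAP2, and brain endothelial cells carry both the receptor and MHC class I.

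None of the 32 tested genes differed between KO and WT mice after adjustment over all genes. *Ifitm1*, a membrane protein that restricts viral entry, was 0.652-fold as high in KO mice and was the only one with an unadjusted p under 0.05 (3.12% of the 32, against 5.88% of all genes tested), a call that was lost without WT 1. *Ifnar2* had the largest positive difference, and *Oas1a*, which passed the filter only through its WT values, the largest negative one. The 21 interferon-stimulated genes tested had a median log2 fold change of −0.14, and the 6 antigen presentation genes had a median of 0.00, a difference between lists that was not tested. With choroid plexus markers as a covariate, an alternative chosen after seeing the data, these medians were −0.28 and −0.27.

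The depth of the libraries was estimated as 6400000 to 12000000 fragments, taking the most common low value of FPKM times transcript length as 1 fragment. At that depth 0.256 to 0.472 FPKM stands for 3 fragments from a transcript of 1 kb, a floor for counting error only. *Crif1* was measured at 18.8, 15.3 and 16.5 FPKM in WT mice and 10.8, 7.54 and 10.4 FPKM in KO mice, with no overlap (log2 fold change −0.77, SE 0.22, unadjusted limma p = 0.00534, adjusted p = 0.841, exact permutation p = 0.1). The endothelial markers *Cldn5* (420.1 to 702 FPKM) and *Pecam1* (55.8 to 90.9 FPKM) were present in every library. KO 1 and KO 3 stood apart from the other libraries in markers of the choroid plexus, an epithelium that makes cerebrospinal fluid. The summed FPKM of *Ttr*, *Kl*, *Folr1* and *Aqp1* was 8800.2 in KO 1 and 10515 in KO 3, against 2841 to 3319 in the WT libraries and 2943 in KO 2. Fold changes are on the log2(FPKM + 1) scale, which understates the change of low genes. In whole microvessels, fewer cells of a type and less RNA per cell cannot be told apart.

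**Figure D1:**
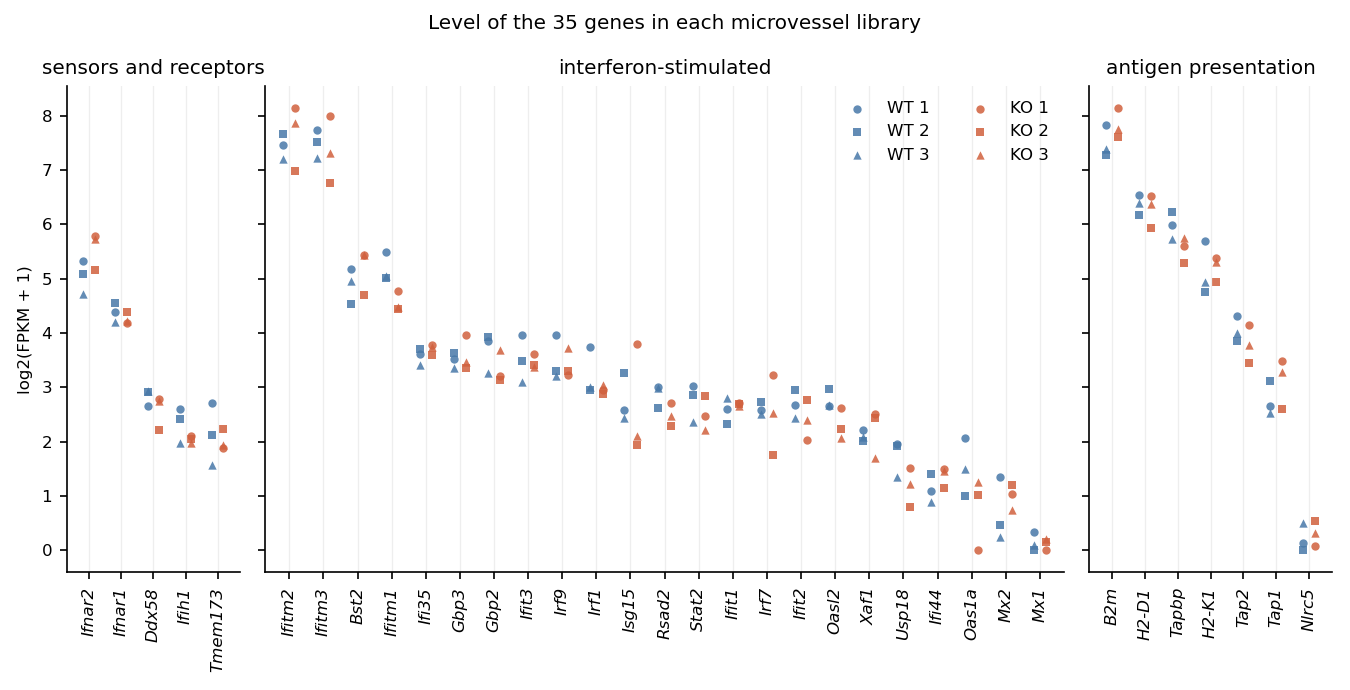
Level of each of the 35 genes as log2(FPKM + 1) on the vertical axis, with 1 point per library (blue, WT; orange, KO; the shape gives the replicate number). The genes are ordered by mean level within each list, and WT and KO points overlap for all tested genes except *Ifitm1* and *Oasl2*.

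Of the 32 genes tested, 1 had an unadjusted limma p under 0.05 (3.12%), and it was lower in KO mice. Over all 14247 genes tested, 838 did (5.88%), with 443 lower in KO mice (3.11%) and 395 higher (2.77%). Adjusted limma p-values were 0.841 or more, and no gene of the whole table had an adjusted p under 0.05. WT and KO values did not overlap for 2 of the 32 genes (6.25%), both lower in KO mice, and for 11.1% of all genes (5.7% lower and 5.37% higher in KO mice). Thus neither share was above that of all genes. Log2 fold changes were below 0 for 21 of the 32 genes (65.6%), against 50.8% of all genes, and above 0 for 11, against 49.2%. Their median was −0.12, against −0.01. The 95% intervals of 31 of the 32 included 0, which does not show that these genes were at the same level in both groups.

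**Figure D2:**
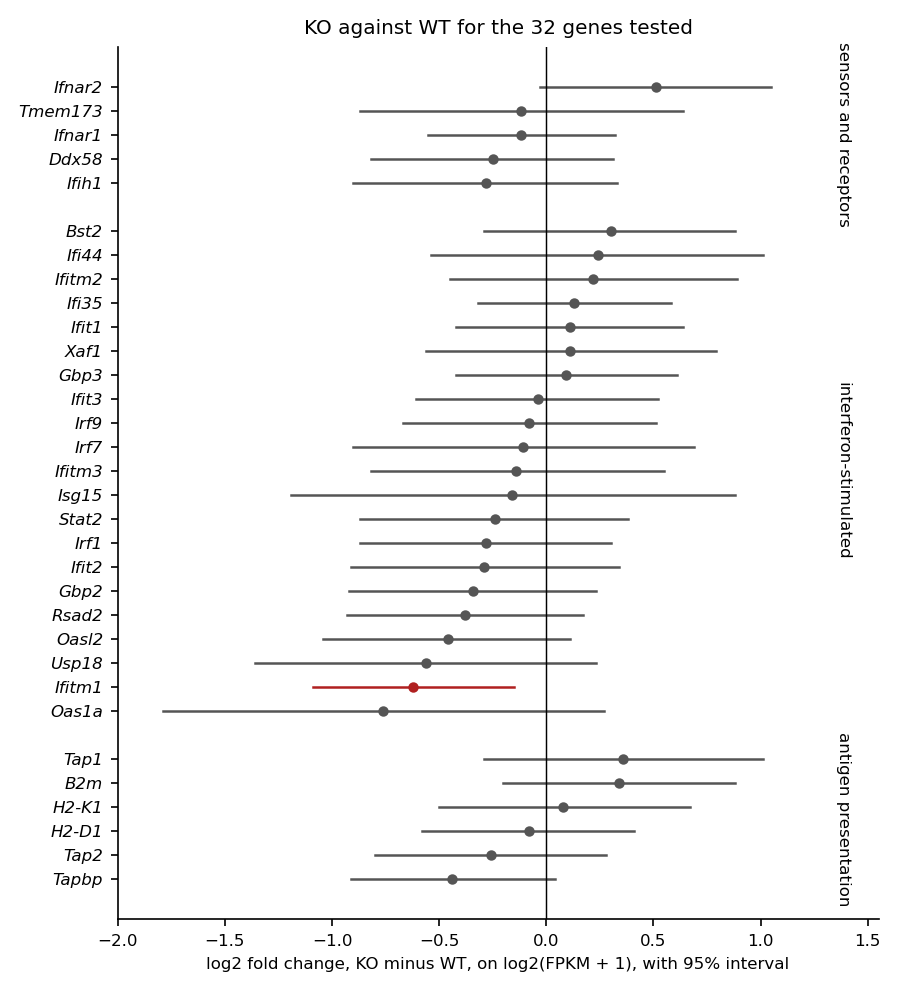
Log2 fold change of KO against WT on log2(FPKM + 1) for the 32 genes tested (horizontal axis), with 95% intervals from limma, by list. Red marks an unadjusted p under 0.05, which *Ifitm1* alone had, with an interval from −1.09 to −0.15.

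Upstream in the pathway, *Ifnar2*, the signaling chain of the type I interferon receptor, was measured at 39.2, 32.9 and 25.2 FPKM in WT mice and at 53.9, 34.8 and 51.9 FPKM in KO mice. KO 1 and KO 3 were above every WT library, and KO 2 lay within the WT range. Its log2 fold change of 0.51 (95% interval −0.03 to 1.05) did not pass (unadjusted limma p = 0.0604, adjusted p = 0.841, exact permutation p = 0.2). Without KO 2 the log2 fold change was 0.71 and without WT 1 it was 0.66, both with an unadjusted limma p under 0.05 and adjusted p-values of 0.25 and 0.963. It was 0.35 without WT 3 and 0.40 without KO 1, neither with an unadjusted p under 0.05. *Ifnar1*, the other chain, was more even, at 20, 22.4 and 17.5 FPKM in WT mice and 17.2, 19.9 and 17.7 FPKM in KO mice. These values overlapped, and the log2 fold change was −0.12 (95% interval −0.55 to 0.32).

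The sensors were much lower than the receptor chains. *Ddx58* (RIG-I) was measured at 5.27, 6.52 and 6.61 FPKM in WT mice and 5.85, 3.62 and 5.69 FPKM in KO mice, where only KO 2 was below the WT range. *Ifih1* (MDA5), which detects long double-stranded RNA, was measured at 5.06, 4.32 and 2.94 FPKM against 3.29, 3.15 and 2.95 FPKM. All 3 KO values of *Ifih1* lay near the lowest WT library, with a log2 fold change of −0.28 (95% interval −0.90 to 0.33). *Tmem173*, which encodes STING, was measured at 5.57, 3.33 and 1.95 FPKM in WT mice and 2.69, 3.70 and 2.81 FPKM in KO mice. The WT libraries spread 2.86-fold, which was wider than the KO libraries at 1.37-fold.

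Among the transcription factors, *Irf7*, the main amplifier of type I interferon induction, was measured at 4.95, 5.66 and 4.68 FPKM in WT mice and 8.39, 2.35 and 4.74 FPKM in KO mice. KO 1 was above and KO 2 below all WT libraries, and the log2 fold change of −0.11 (SE 0.36) became 0.27 without KO 2. *Irf9*, the DNA-binding part of the complex with STAT2, was measured at 14.5, 8.89 and 8.28 FPKM against 8.31, 8.82 and 12.2 FPKM, and both groups had a single high library. *Stat2* was measured at 7.17, 6.29 and 4.12 FPKM in WT mice and 4.56, 6.11 and 3.64 FPKM in KO mice, with overlap. *Irf1*, an early factor of the interferon gamma response, had a mean of 8.73 ± 3.18 FPKM (SD, n = 3) in WT mice and 6.76 ± 0.461 FPKM (SD, n = 3) in KO mice. WT 1 was the single high library of *Irf1*, at 12.4 FPKM. Log2 fold changes of *Irf1*, *Irf9* and *Stat2* were −0.28, −0.08 and −0.24, and that of *Irf1* was −0.03 without WT 1.

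Of the antiviral effectors, the Ifitm genes were among the most abundant in RNA. *Ifitm1* (chr7:140967221-140969825, GRCm38, plus strand) was measured at 43.9, 31.3 and 32.1 FPKM in WT mice and 26.2, 20.8 and 21.4 FPKM in KO mice. All 3 KO values were below all 3 WT values. Its log2 fold change was −0.62 (SE 0.21, unadjusted limma p = 0.0152, adjusted p = 0.841), and the exact permutation p was 0.1, the smallest that 3 mice against 3 can give. Without WT 1, the highest library, the log2 fold change was −0.46 and the unadjusted limma p was no longer under 0.05. *Ifitm2* and *Ifitm3*, its neighbors on chromosome 7, did not share this order. *Ifitm2* was measured at 176, 200.4 and 147 FPKM in WT mice and 281, 126 and 231 FPKM in KO mice, and *Ifitm3* at 213, 182 and 149 FPKM against 254, 108 and 158 FPKM. For both genes KO 1 was the highest of the 6 libraries and KO 2 the lowest, with log2 fold changes of 0.22 and −0.14.

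*Oasl2*, a relative of the oligoadenylate synthetases, was the other gene without overlap, at 5.32, 6.86 and 5.40 FPKM in WT mice and 5.15, 3.70 and 3.19 FPKM in KO mice. KO 1 was only just below the lowest WT library, and the log2 fold change of −0.46 (SE 0.26) had an unadjusted limma p of 0.102 and an adjusted p of 0.841. *Oas1a*, a synthetase that activates RNase L, was low, with a WT mean of 2.00 ± 1.12 FPKM (SD, n = 3) and a KO mean of 0.801 FPKM. KO 1 was listed at 0, and the KO mean alone was below the filter, so *Oas1a* entered the test through its WT values. Its log2 fold change of −0.76 had a 95% interval of −1.79 to 0.27, and it was −1.79 with a pseudocount of 0.1 and −0.38 without KO 1. *Mx1*, an influenza restriction factor, was between 0 and 0.258 FPKM in every library, and *Mx2* was between 0.18 and 1.56 FPKM. Neither was tested.

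*Isg15*, a ubiquitin-like protein that is attached to other proteins, had the widest spread within a group among the tested genes with a value above 0 in every library. It was measured at 5.0, 8.65 and 4.40 FPKM in WT mice and 12.9, 2.81 and 3.28 FPKM in KO mice. KO 1 was the highest of all libraries and the other KO libraries were the lowest, a 4.58-fold spread within the KO group. The log2 fold change was −0.16 (95% interval −1.19 to 0.88), and it lay between −0.75 without KO 1 and 0.18 without KO 2. *Usp18*, the protease that removes ISG15, had means of 2.40 ± 0.749 and 1.31 ± 0.561 FPKM (SD, n = 3 each), with a log2 fold change of −0.56 (95% interval −1.36 to 0.23).

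*Ifit3*, a partner of IFIT1 in binding viral RNA, was measured at 14.5, 10.2 and 7.59 FPKM in WT mice and 11.3, 9.61 and 9.34 FPKM in KO mice. The KO values lay inside the WT range, and the log2 fold change was −0.04. *Ifit1* was evenly expressed in KO mice (5.31 to 5.54 FPKM) and within the WT range of 4.01 to 5.95 FPKM, and *Ifit2* had a log2 fold change of −0.29, which was −0.10 without KO 1, −0.47 without KO 2 and −0.01 with the choroid plexus covariate. *Bst2* (tetherin), which holds budding virus at the cell surface, was measured at 35.4, 22 and 30.1 FPKM in WT mice and 42.1, 25.1 and 42.0 FPKM in KO mice. KO 1 and KO 3 were above all WT libraries and KO 2 was not, with a log2 fold change of 0.30 (95% interval −0.29 to 0.88). The remaining effectors had log2 fold changes between −0.38 for *Rsad2*, which encodes viperin, and 0.24 for *Ifi44*. Between these lay *Ifi35* at 0.13 and *Xaf1* at 0.11, and the guanylate-binding proteins *Gbp2* and *Gbp3*, which attack intracellular pathogens, at −0.34 and 0.09.

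To relate these genes to the sequence that the complex of STAT2 and IRF9 reads, promoters from RefSeq (GRCm38.p6) were searched in the 250 bases before the start. A promoter was given for 29 of the 35 genes. The ISRE core, GAAANNGAA on either strand, was found in 12 of 29 (41.4%), including 10 of 20 interferon-stimulated genes (50%). Of all 27025 genes with a promoter, 2211 had it (8.18%). The GAS core, TTCNNNGAA on either strand, an element of interferon gamma responses, was found in 5 of 29 (17.2%), against 8.13% of all genes with a promoter. These matches are letters in a window and not measured binding. Below are the 160 bases before the start, 5′ to 3′ on the strand of the gene, with bases of a core on either strand in capitals, for 4 genes with a core and for *Ifitm1*, which has neither core.
Isg15 (chr4:156200819-156200978, minus strand): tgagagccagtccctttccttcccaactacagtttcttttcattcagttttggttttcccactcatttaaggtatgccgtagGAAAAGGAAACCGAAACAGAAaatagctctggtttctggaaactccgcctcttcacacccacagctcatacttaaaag
Ifit1 (chr19:34640729-34640888, plus strand): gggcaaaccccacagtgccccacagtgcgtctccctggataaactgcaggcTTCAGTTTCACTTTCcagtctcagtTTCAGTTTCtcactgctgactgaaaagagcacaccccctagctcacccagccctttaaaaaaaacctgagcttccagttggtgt
Bst2 (chr8:71537473-71537632, minus strand): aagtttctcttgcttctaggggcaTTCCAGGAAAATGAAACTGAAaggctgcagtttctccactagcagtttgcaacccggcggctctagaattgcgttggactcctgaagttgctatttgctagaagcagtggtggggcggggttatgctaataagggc
B2m (chr2:122147527-122147686, plus strand): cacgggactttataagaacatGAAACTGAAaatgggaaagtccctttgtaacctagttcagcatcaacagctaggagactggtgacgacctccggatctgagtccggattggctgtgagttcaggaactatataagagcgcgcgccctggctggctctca
Ifitm1 (chr7:140967916-140968075, plus strand): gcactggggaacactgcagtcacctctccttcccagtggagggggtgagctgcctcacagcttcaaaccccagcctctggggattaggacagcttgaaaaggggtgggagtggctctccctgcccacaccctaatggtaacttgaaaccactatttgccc

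In *Isg15*, 3 overlapping ISRE cores began between 78 and 66 bases before the start, and *Ifit1* had 3 on the opposite strand. In *Bst2* a GAS core ran into 2 overlapping ISRE cores, and *B2m* had a single ISRE core 139 bases before the start. The RefSeq start of *Ifitm1* used here lies inside the longer GENCODE gene given above, so its window is not the only one the gene has. The 12 tested genes with an ISRE core had a median log2 fold change of −0.10 (5 higher and 7 lower in KO mice), or −0.04 without *Oas1a*, which passed the filter only through its WT values. The 17 with a promoter but no ISRE core had a median of −0.11.

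The MHC class I genes were among the highest of the 35. *B2m*, the light chain of every class I molecule, was measured at 226, 154 and 166 FPKM in WT mice and 279.8, 194 and 214 FPKM in KO mice. The groups overlapped through WT 1, with a log2 fold change of 0.34 (95% interval −0.20 to 0.88, unadjusted limma p = 0.196, adjusted p = 0.867, exact permutation p = 0.3). The log2 fold change of *B2m* was 0.18 with a correction for transcript GC content, 0.07 with one for GC content and length, 0.17 with the choroid plexus covariate, and from 0.18 without KO 1 to 0.50 without WT 1. Of the classical heavy chains, *H2-D1* was measured at 92.1, 71.3 and 82.5 FPKM against 91.4, 60.3 and 82.3 FPKM, and *H2-K1* at 50.4, 26.0 and 29.6 FPKM against 40.5, 29.8 and 38.7 FPKM. Their log2 fold changes were −0.08 (95% interval −0.58 to 0.41) and 0.08 (95% interval −0.50 to 0.67).

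None of the peptide-loading genes passed the test. *Tapbp* (tapasin), which bridges TAP and the class I heavy chain, was measured at 62.1, 73.6 and 52.0 FPKM in WT mice and 47.6, 37.9 and 52.4 FPKM in KO mice. KO 1 and KO 2 were below every WT library and KO 3 was just above the lowest, with a log2 fold change of −0.44 (95% interval −0.91 to 0.04, unadjusted limma p = 0.07, adjusted p = 0.841, exact permutation p = 0.2). Its unadjusted limma p was under 0.05 with quantile normalization (log2 fold change −0.45), without WT 3 (−0.56) and without KO 3 (−0.53), and the log2 fold change was −0.30 with the GC correction and −0.29 with the GC and length correction. The transporter chain *Tap2* had a log2 fold change of −0.26 (95% interval −0.80 to 0.28), which was −0.09 without KO 2, −0.44 without KO 1 and −0.53 with the covariate, and *Tap1* one of 0.36 (95% interval −0.29 to 1.01), which lay between 0.18 without KO 1 and 0.62 without KO 2. *Nlrc5*, the transactivator of class I genes, was at most 0.446 FPKM in any library and was not tested.

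Libraries of the same genotype differed from each other by more than the median difference between the groups. Set against each gene's WT mean, the median of the 32 genes on the log2 scale was 0.18, 0.06 and −0.21 over the WT libraries in the order of their numbers, and 0.10, −0.24 and −0.15 over the KO libraries. WT 1 was the highest of the 6 libraries for 13 genes (40.6%, against 15.7% of all genes) and KO 1 for 12 (37.5%, against 18.6%). KO 2 was the lowest for 13 (40.6%, against 25% of all genes, the largest share of any library) and was never the highest, although it was the highest for 21.3% of all genes. The brain endothelial markers, of which 7 of 10 were below 0 in KO mice, had summed levels of 1033 to 1466 FPKM in WT mice and 928 to 1248 FPKM in KO mice, and *Cdh5* (VE-cadherin) had an unadjusted limma p under 0.05, with means of 90.1 and 43.8 FPKM. Their medians were 0.22, 0.03 and −0.26 in the WT libraries and −0.11, −0.26 and −0.14 in the KO libraries, so that KO 1 was below the WT mean for these markers and above it for the 32 genes. Pericyte markers had medians of 0.12, 0.08 and −0.25 in the WT libraries and −0.18, −0.34 and −0.35 in the KO libraries. Over all genes the medians were between −0.02 and 0.01, and 50.8% of genes had log2 fold changes below 0. Astrocyte markers were below 0 for 5 of 5 (median −0.42, 2 with an unadjusted limma p under 0.05), with sums of 538 to 602 FPKM in WT mice and 391 to 429.8 FPKM in KO mice, and fibroblast markers for 4 of 4, with sums of 769 to 1092 against 463 to 693 FPKM. Neuron markers were below 0 for 4 of 4, oligodendrocyte markers for 3 of 4 (sum 109 FPKM in KO 3 against 225 to 335 FPKM in the others) and red blood cell markers for 3 of 3 found. Whether cell content had a part in the levels of the 32 genes was not tested.

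**Figure D3:**
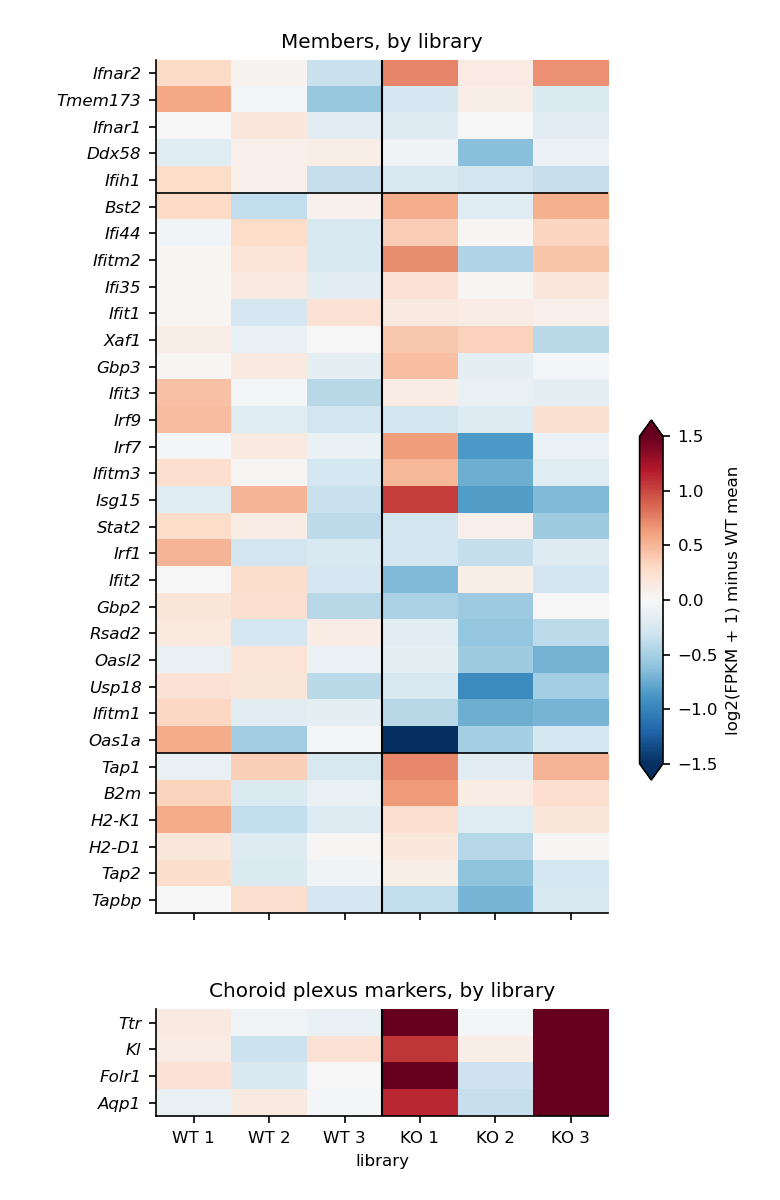
Color shows log2(FPKM + 1) minus the WT mean of each gene, with libraries in columns and the 32 tested genes (top, lines separate sensors and receptors, interferon-stimulated and antigen presentation genes) or the choroid plexus markers (bottom) in rows. Colors are capped at 1.5 in either direction, and KO 2 is the lowest library for 13 of the 32 genes.

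In 6 of the 32 genes (18.8%) KO 1 and KO 3, the libraries rich in choroid plexus markers, were the 2 highest, against 13.2% of all genes. These were *Ifnar2*, *Bst2*, *Ifitm2*, *Tap1*, *Ifi35* and *Ifi44*, of which *Tap1*, *Ifi35* and *Ifi44* were singled out after their values were seen. With the choroid plexus marker mean of each library as a covariate, the log2 fold change was 0.19 for *Ifnar2*, −0.13 for *Bst2*, −0.28 for *Ifitm2*, −0.01 for *Tap1*, 0.05 for *Ifi35* and 0.08 for *Ifi44*. These 6 genes share the order of the libraries that the covariate carries, so lower values follow from how they were picked. *Ifitm1* (−0.70) and *Tapbp* (−0.64) then had unadjusted limma p-values of 0.0197 and 0.0195, with adjusted p = 0.381 for each, when 11.6% of all genes had an unadjusted p under 0.05. Without KO 2 the 5 genes under 0.05 were *Ifnar2*, *Bst2*, *Ifitm2* and *Tap1*, higher in KO mice, and *Ifitm1*, lower, when 13.1% of all genes were under 0.05.

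**Figure D4:**
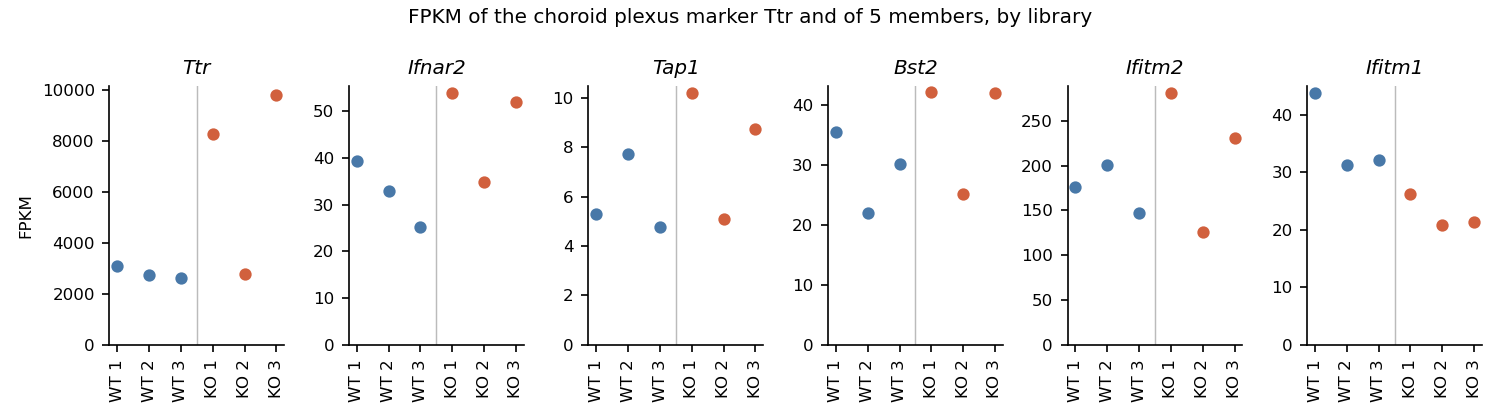
FPKM of the choroid plexus marker *Ttr* and of *Ifnar2*, *Tap1*, *Bst2*, *Ifitm2* and *Ifitm1* (vertical axes from 0) in each library (blue, WT; orange, KO). In KO 1 and KO 3 *Ttr* is at 8262 and 9787 FPKM and the 4 genes after it are at their highest, whereas *Ifitm1* is lower in all 3 KO libraries.

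A different pair, WT 1 and KO 1, held the 2 highest values for another 6 genes (18.8%, against 5.75% of all genes), namely *B2m*, *H2-K1*, *H2-D1*, *Tap2*, *Ifitm3* and *Ifit3*. This pair was singled out after the values were seen, and it crosses the genotypes. The summed FPKM of the smooth muscle markers *Acta2*, *Tagln*, *Myh11* and *Cnn1* was also highest in this pair, at 561 in WT 1 and 754 in KO 1, against 225 to 381 in the other libraries, and 4 of 4 had log2 fold changes above 0. The part of smooth muscle content in these levels was not tested.

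The rest of the pathway was examined with further lists. Of 25 tested pathway components (27 listed), *Socs3*, a feedback inhibitor of JAK signaling, was the only one with an unadjusted limma p under 0.05 (log2 fold change −0.73, unadjusted limma p = 0.046, adjusted p = 0.841, exact permutation p = 0.2). It was measured at 7.30, 6.01 and 5.46 FPKM in WT mice and 5.90, 2.66 and 2.26 FPKM in KO mice, with overlap through KO 1. The interferon gamma receptor chain *Ifngr2* was lower in KO mice without overlap (17.6 to 21.1 against 24 to 27.3 FPKM). The kinase *Tbk1*, which acts below the sensors, was higher without overlap (8.40 to 13.2 against 6.42 to 7.97 FPKM). Of the 25, 4% had an unadjusted limma p under 0.05 and 8% had no overlap, against 5.88% and 11.1% of all genes. *Jak1*, the kinase that is the most abundant component by mean FPKM, had a log2 fold change of 0.00, and *Ifngr2*, the next, one of −0.36. The median of the 25 was −0.09.

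Interferon genes themselves were barely seen. Of 10 ligand genes, 8 were listed at 0 in every library, *Ifng* was at 0.283 FPKM in KO 2 alone and *Ifnk* at 0.128 FPKM in KO 3 alone, both below the estimated floor of 3 fragments on 1 kb.

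Among 47 other interferon-stimulated genes, 36 were tested and none had an unadjusted limma p under 0.05 (against 5.88% of all genes). Their median log2 fold change was −0.13, and 24 of 36 were below 0 (66.7%, against 50.8% of all genes). Tested genes without overlap were 8.33% of this list, against 11.1% of all genes. They were *Ifi203* and *Iigp1*, higher in KO mice, and *Uba7*, which activates ISG15 and was lower (1.71 to 2.94 against 3.86 to 3.97 FPKM). The low genes *Oas1b* and *Slfn8* (lower) and *Oas2* (higher) also had no overlap and were not tested. The most abundant genes of the list, *Ifi27* and *Ube2l6*, had log2 fold changes of 0.21 and −0.17.

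Of 16 other antigen presentation genes, 15 were tested and none had an unadjusted limma p under 0.05. Their median was 0.12, with the chaperones *Calr* at 0.16 and *Pdia3* at 0.40. The 6 tested MHC class II genes, which are used by macrophages and other professional antigen-presenting cells, had log2 fold changes from −0.87 to −0.33. All were below 0, against 50.8% of all genes. *H2-Aa* was measured at 11.1, 6.72 and 8.0 FPKM in WT mice and 3.65, 4.91 and 3.98 FPKM in KO mice, without overlap (log2 fold change −0.87, unadjusted limma p = 0.00659, adjusted p = 0.841, exact permutation p = 0.1). The most abundant class II genes, *Cd74* and *H2-Ab1*, had log2 fold changes of −0.70 and −0.33 with overlap. *H2-Aa* was the only tested class II gene under 0.05 or without overlap (16.7%, against 5.88% and 11.1% of all genes).

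Markers of immune cells were compared beside these genes. For perivascular macrophages, 5 of 5 markers had log2 fold changes below 0 (median −0.49, none with an unadjusted limma p under 0.05), with sums of 71.4 to 103 FPKM in WT mice and 63.3 to 72.6 FPKM in KO mice. For microglia, 6 of 7 were below 0 (median −0.22), with *C1qa* at an unadjusted limma p of 0.0435 (log2 fold change −0.62), and sums of 187 to 225 against 155 to 186 FPKM. The leukocyte gene *Ptprc* had a log2 fold change of 0.26 with overlap, the neutrophil genes *S100a8* and *S100a9* had −0.01 and −1.07 with overlap, and the monocyte gene *Ccr2* was at 0.797 to 1.73 FPKM in WT mice and 0.238 to 0.591 FPKM in KO mice and was not tested. Of the lymphocyte markers, *Cd8a*, *Nkg7* and *Klrb1c* were listed at 0 in every library and *Cd3e* in 5 of 6, while the B cell gene *Cd79a* was at 1.14 to 8.08 FPKM. *Cd3d* was at 0.0713 to 0.0921 FPKM in WT mice and 0.126 to 0.207 FPKM in KO mice, and the B cell gene *Ms4a1* was listed at 0 in WT mice and at 0.0624 to 0.168 FPKM in KO mice, all under the floor of 3 fragments on 1 kb. Whether immune cell content had a part in the class II values was not tested.

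**Figure D5:**
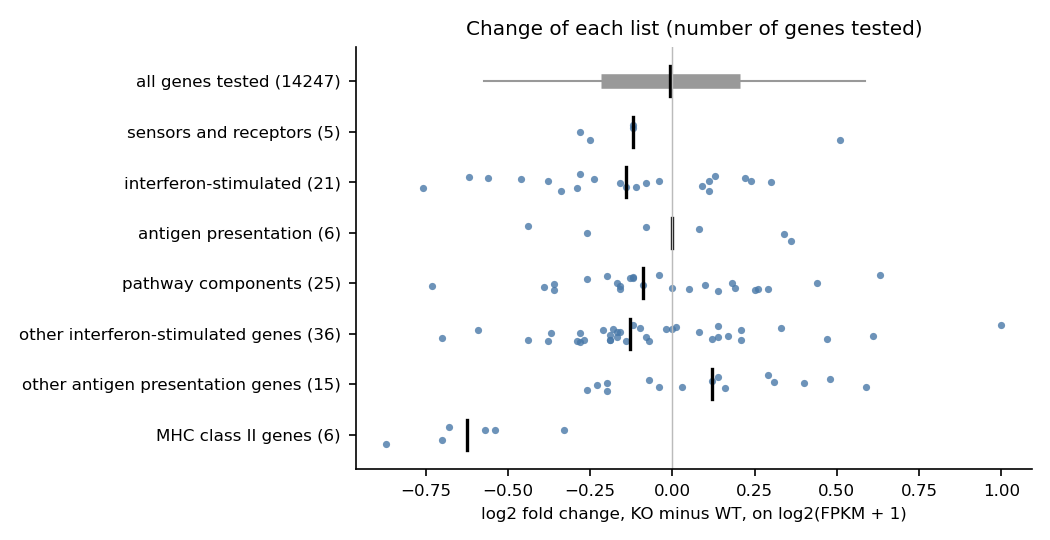
Log2 fold change of KO against WT on log2(FPKM + 1) (horizontal axis) for each tested gene of each list (points), with the median as a black line, and for all genes tested the range from the 5th to the 95th percentile (thin line) and the quartiles (thick line). Medians lie between −0.14 and 0.12 for every list except the MHC class II genes, at −0.63.

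Counting limits touch some of these values. Exons of 11 of the 35 genes overlap another gene in GENCODE M21, 8 of them on the opposite strand, such as *Tap1* with *Psmb9*. *Ifit3* and *Ifit3b*, *Oas1a* and other Oas1 genes, and *H2-K1*, *H2-D1* and the H2-Q genes share long stretches of sequence. The kit keeps strand, but the strand setting and the treatment of reads with several matches are not given in the sources used here, so the levels of these genes are uncertain.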

How the data were processed

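Brain microvessels were isolated on dextran, RNA was extracted with TRIzol, and paired-end reads of NEBNext Ultra II Directional libraries were obtained on a HiSeq X10. The authors trimmed the reads, mapped them with TopHat (version not given in the sources used here) and deposited FPKM values for 23183 gene symbols in each of 6 libraries, with the build mm10 per the labels. The study tested with DESeq2, a test for read counts, which were not used here.

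The labelled genotype set the groups, 3 WT and 3 KO libraries, and replicate numbers come from the sample titles (column names inside the files carry other numbers). The comparison used limma 3.58.1 (R 4.3.3, trended variance, two-sided) and log2(FPKM + 1) without further scaling. It covered the 14247 genes whose mean was 1 FPKM or more, with Benjamini-Hochberg adjustment over them. For single genes the means were compared by exact permutation (two-sided), where the smallest p is 0.1. The study gives 3 mice per group. Member genes and lists were chosen with earlier results of these data known. Per-library values are given for members with an unadjusted p under 0.05 or without overlap and the 3 most abundant of each list. They are also given for set members such as *Isg15* and *B2m*. Genes of the other pathway lists are named on the same grounds or as 1 of the 2 most abundant. The naming of cell type markers did not follow this rule.

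Depth was estimated from low FPKM values of genes with 1 annotated transcript. The most common value of FPKM times annotated length was taken to stand for 1 fragment. Positions, transcript GC content and length came from GENCODE M21 (GRCm38), matched for all 35 genes, and promoters from RefSeq. Tables were made with Python 3.11.15. The fit and the GC correction were tested on simulated data. Alternatives were no filter or a mean of at least 5 FPKM, a pseudocount of 0.1, trimmed-mean, median and quantile scaling, no variance trend, a replicate block, correction of each library for GC content or GC content and length (loess), the GC correction together with the block, and leaving out each library. A choroid plexus covariate was added after seeing the data. Of the pathway components, 1 gene is not reported here, and the counts include it.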

Additional observations from a re-analysis of the deposited data

How the results depend on the processing

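*Ifitm1* kept an unadjusted limma p under 0.05 under all 12 other settings, at log2 fold changes of −0.73 to −0.60, and when 5 of the 6 libraries were left out in turn, but not without WT 1 (−0.46, with a range of −0.72 to −0.46). The number of genes of the 32 with an unadjusted p under 0.05 was 2 with trimmed-mean scaling (5.99% of all genes there), 3 with quantile normalization (6.51%), 2 with the GC and length correction (5.01%), 2 with the choroid plexus covariate (11.6%) and 1 to 5 with a library left out (5 without KO 2, 13.1%). The number without overlap was 1 with the filter at 5 FPKM (11.6% of all genes), 4 with the GC correction, 4 with it and the replicate block (9.49% for both), and 5 to 9 with a library left out, when 2 libraries face 3 (16.9% to 30.7% of all genes). Over all genes, 1648 had an unadjusted p under 0.05 with the covariate and 450 to 1871 with a library left out (450 without WT 2, 510 without KO 1, 1871 without KO 2), and 0 to 4 had an adjusted p under 0.05, none of them among the 32 genes. The median of the antigen presentation genes was −0.27 with the covariate and −0.14 to 0.15 with a library left out, that of the interferon-stimulated genes −0.28 with the covariate and −0.27 to −0.01 with a library left out, and that of the sensors and receptors −0.01 with the covariate and −0.21 to −0.08 with a library left out. *Ifnar2* had an unadjusted p under 0.05 with trimmed-mean scaling (0.52), quantile normalization (0.50) and the GC and length correction (0.52).

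The log2 fold change moved by over 1.5 times under at least 1 alternative for 29 of the 32 genes. Directions changed for several genes, none with an unadjusted p under 0.05 in the comparison reported. With the covariate the log2 fold change was 0.05 for *Stat2*, −0.28 for *Ifitm2*, −0.13 for *Bst2*, −0.17 for *H2-K1*, −0.01 for *Tap1*, −0.04 for *Gbp3* and 0.04 for *Tmem173*. It was −0.01 for *Ifit1* and 0.03 for *H2-D1* with the GC correction, with or without the block, and −0.03 for *Ifit1* and 0.02 for *Irf7* with the GC and length correction. With a library left out it ranged from −0.02 to 0.22 for *Ifit1*, −0.25 to 0.18 for *Ifit3*, −0.75 to 0.18 for *Isg15*, −0.47 to 0.27 for *Irf7*, −0.23 to 0.15 for *Irf9*, −0.02 to 0.55 for *Ifitm2*, −0.45 to 0.16 for *Ifitm3*, −0.03 to 0.37 for *Xaf1*, −0.10 to 0.36 for *H2-K1*, −0.21 to 0.09 for *H2-D1*, −0.08 to 0.21 for *Gbp3* and −0.40 to 0.18 for *Tmem173*. The cause of these changes was not tested.

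With the replicate block 871 of all genes and 1 of the 32 had an unadjusted p under 0.05. Deviations of same-numbered libraries correlated at 0.04, 0.03 and 0, and those of the other pairs at −0.07 to 0.05. These values show no shared shift but cannot exclude that the mice were paired. The other numbers, in the column names, were not used. Depth limits *Oas1a* and *Mx2*, which are near 1 FPKM, and *Mx1* and *Nlrc5*, whose means are under the floor of 3 fragments on 1 kb. That floor is lower for a longer transcript and was not worked out for the length of each gene.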
